A study of Mus musculus with 54 samples.

Results

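Genes of cholesterol sensing and cholesterol efflux were followed in mouse peritoneal macrophages. They were chosen by symbol, as 10 of the 39179 genes in the deposited count tables, and all 10 were expressed highly enough to be tested in both experiments of the study. Nr1h2 and Nr1h3 encode the liver X receptors LXRβ and LXRα. Abca1, Abcg1 and Apoe serve the export of cholesterol from the cell, Mylip and Lpcat3 are LXR target genes that act on the LDL receptor and on membrane phospholipids, Npc1 and Npc2 move cholesterol out of late endosomes and lysosomes, and Soat1 esterifies cholesterol for storage.

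LXRs are nuclear receptors that bind DNA together with RXR partners and are activated by oxysterols and by desmosterol, so that a sterol-laden macrophage raises its own efflux machinery. ABCA1 passes cholesterol and phospholipid to lipid-poor apolipoprotein A-I, ABCG1 passes cholesterol to high-density lipoprotein, and apolipoprotein E, secreted by macrophages, serves as a further acceptor. Inflammatory stimuli and IL-4 are both known to act on this circuit in macrophages.

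The macrophages were adherent peritoneal exudate cells of C57BL/6 mice aged 8 to 20 weeks, elicited with thioglycolate. M1-like cells received 100 ng/ml LPS with 50 ng/ml IFNγ, M2-like cells received 10 ng/ml IL-4, and M0 cells received neither. In the polarization experiment each state was sampled after 24 h in 3 mice, with 2 technical replicates of each mouse that were summed here, which gave 3 replicates per group. The reprogramming experiment held 12 groups of 3 libraries. M0, M1-like and M2-like cells were either untransfected or mock treated with the transfection reagent alone, and M2-like cells were also transfected with siRNA pools that target nothing in the mouse (the negative siRNA pool), E2f1, Myc, Pparg or Stat6, or all 4 genes together, the state called iM1. RNA of the transfected cells was taken 48 h after transfection, and IL-4 was no longer present after it. RNA sequencing without transfection is described at 24 h of polarization, and it is not stated whether this covers the untransfected libraries sequenced with the reprogramming experiment or whether those were harvested with the mock-treated ones. Whether LPS and IFNγ remained on the M1-like cells is not stated either. Biological replicates of the M0, M1-like, M2-like and iM1 states are named in the account of RNA extraction for quantitative PCR. The labels of the reprogramming libraries tie none of them to a mouse, so p-values there measure the spread between these libraries. Whether that is a spread between mice cannot be told from the labels. The experiments differed in sequencing site and read type and possibly in time, which cannot be told apart, and no test was run between them.

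Summed counts ran from 39577911 to 59443987 per replicate in the polarization experiment and from 13421854 to 19704195 in the reprogramming experiment. The 6 macrophage markers were above 1 CPM in every group, with a summed level of 9680 to 17300 CPM in the former and 6090 to 18200 CPM in the latter. The siRNA targets were lowered: against M2-like mock cells E2f1 stood at 18.9% ± 3.03 (SD, n = 3) in its own knockdown and 45.2% ± 1.5 in iM1, Myc at 35.4% ± 7.45 and 36.8% ± 2.97, Pparg at 24.1% ± 2.82 and 31.0% ± 2.46, and Stat6 at 27.9% ± 5.91 and 55.1% ± 4.92. In the negative siRNA pool these genes stood between 74.8% (E2f1) and 110% (Pparg).

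Levels below are TMM-normalized CPM, read counts scaled to a common library size, and differences are log2 fold changes ± SE from edgeR's quasi-likelihood test, fitted over 16110 genes (polarization) or 14172 genes (reprogramming). A gene was called at an adjusted p under 0.05, and each count of called members stands beside the share of all tested genes called in the same direction (the background). In bulk RNA, fewer cells of a type and less RNA per cell cannot be told apart.

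Promoter sequence was available for 8 of the 10 genes, in 11 windows from 250 bases before to 50 after a RefSeq start (GRCm38.p6). LXR with RXR is known to bind a direct repeat spaced by 4 bases. The repeat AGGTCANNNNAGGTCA, searched on both strands, was in none of the 11 windows and in 0.0152% of all 32851 windows, and the form with free positions AGGTNANNNNNGGTCA was in none of them and in 0.0883% of all. A looser form, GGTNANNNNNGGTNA, was chosen after those results were seen and was in 0.718% of all windows. Among the members it was found in Abca1 alone, as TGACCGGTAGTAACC on the reverse strand, from 67 to 53 bases before the start (chr4:53159948-53159962). The E-box CACGTG, a hexamer bound by Myc-family factors and also chosen later, was in 7.15% of all windows and, among the members, again in Abca1 alone (chr4:53160037-53160042, from 147 to 142 bases before the start). The 250 bases before the starts of Abca1 and Apoe are shown because these genes varied most between conditions. The capitals mark the E-box and then the loose repeat, neither of which is in the Apoe stretch, and both genes lie on the minus strand.
Abca1, chr4:53159896-53160145: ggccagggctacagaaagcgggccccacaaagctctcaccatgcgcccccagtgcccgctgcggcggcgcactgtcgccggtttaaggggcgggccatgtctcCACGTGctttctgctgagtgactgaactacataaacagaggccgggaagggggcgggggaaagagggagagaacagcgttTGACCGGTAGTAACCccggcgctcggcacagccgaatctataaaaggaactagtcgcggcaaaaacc
Apoe, chr7:19699189-19699438: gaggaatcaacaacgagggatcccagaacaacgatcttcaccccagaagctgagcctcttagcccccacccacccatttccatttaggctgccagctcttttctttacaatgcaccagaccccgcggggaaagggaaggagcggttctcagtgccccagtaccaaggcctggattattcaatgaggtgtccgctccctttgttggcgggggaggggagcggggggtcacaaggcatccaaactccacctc

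The genes lie at chr7:44549616-44553951 (Nr1h2), chr2:91184061-91202834 (Nr1h3), chr4:53030787-53159895 (Abca1), chr17:31057675-31117988 (Abcg1), chr7:19696109-19699188 (Apoe), chr13:45389742-45412022 (Mylip), chr6:124663027-124704418 (Lpcat3), chr12:84754562-84773152 (Npc2) and chr1:156424525-156474331 (Soat1) in GRCm38, and Npc1 is on chromosome 18. Exons of Lpcat3 share 334 bases with the antisense gene Emg1, and those of Npc1 share 511 with the antisense gene Rmc1 and 90 with Gm15956, so reads from these stretches could not be told apart if counting ignored strand, a setting not given in the sources used here. Exons of Nr1h3 share 34 bases with Gm13783 on the same strand, where reads are ambiguous under any strand setting.

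Per length of annotated exon, Apoe was by far the most abundant of the 10 at 24 h, with a mean of 3220 RPKM in M0 cells. Npc2 followed at 238 RPKM, Soat1 at 70.7 and Npc1 at 54.7, while Abca1 was the lowest at 6.58 RPKM in the same cells. In M2-like mock cells of the reprogramming experiment Apoe stood at 5720 RPKM, Abcg1 at 77.4, Abca1 at 47.9, Nr1h3 at 39.6 and Nr1h2 at 32.7 RPKM. RPKM used the summed length of all annotated exons, such as 5438 bases for Npc2, 11317 for Npc1 and 9791 for Soat1. Where the expressed transcripts are shorter than that, the RPKM of any of the genes is too low.

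At 24 h, LPS with IFNγ raised the receptors and Abca1 and lowered Apoe. Abca1 stood at 68.2, 71.6 and 64.6 CPM in the 3 M0 samples, at 678, 453 and 416 CPM in the M1-like samples and at 110, 92.8 and 78.5 CPM in the M2-like samples. All M1-like values lay far above the rest, and M1-like cells exceeded M0 cells by 2.92 ± 0.18 (7.57-fold, adjusted p = 1.74e-08). Npc2, the soluble lysosomal protein that hands cholesterol to NPC1, rose from 1314, 1299 and 1267 CPM in M0 to 3448, 3513 and 3771 CPM in M1-like cells (1.47 ± 0.06, adjusted p = 3.58e-10). Its membrane partner Npc1 fell, from 615, 612 and 632 CPM to 464, 453 and 465 CPM (-0.43 ± 0.05, adjusted p = 1.34e-05). The groups did not overlap for either gene, but the share of all genes without overlap was not determined.

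Both receptor genes were higher in M1-like than in M0 cells at 24 h. Nr1h2 stood at 87.7, 86.1 and 78.0 CPM in M0 and at 181, 167 and 171 CPM in M1-like cells, a difference of 1.05 ± 0.11 (adjusted p = 3.6e-06). Nr1h3 stood at 52.2, 56.0 and 51.0 CPM in M0 and at 76.1, 89.5 and 93.2 CPM in M1-like cells, a difference of 0.70 ± 0.09 (adjusted p = 2.21e-05). Abcg1 (0.46 ± 0.07), Mylip (0.37 ± 0.07) and Lpcat3 (0.28 ± 0.07) rose less. The TMM factors at 24 h were 0.8088 to 0.8365 in M1-like, 1.091 to 1.108 in M0 and 1.092 to 1.119 in M2-like samples. This scaling raises M1-like values relative to both other states, so positive differences as small as these depend on it. Apoe fell, from 7524, 6854 and 6259 CPM to 4283, 4331 and 4701 CPM (-0.63 ± 0.11, adjusted p = 0.000323). In all, 7 members were called higher (background 35.4%) and 2 lower (background 37.5%), and Soat1 was not called (-0.15 ± 0.07, adjusted p = 0.0858). The median difference of the 10 members was 0.42, against -0.037 over all genes.

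IL-4 changed few members at 24 h. Against M0 cells, 1 member was called higher (background 13.5%) and 2 lower (background 14.4%). Abcg1 rose to 258, 275 and 256 CPM from 180, 184 and 176 CPM (0.55 ± 0.07, adjusted p = 0.000127). Mylip, the ubiquitin ligase that degrades the LDL receptor, fell to 16.3, 16.2 and 16.3 CPM from 26.1, 26.6 and 27.0 CPM (-0.71 ± 0.07, adjusted p = 2.29e-05). Apoe fell to 3414, 4523 and 4838 CPM (-0.69 ± 0.11, adjusted p = 0.00101), so both stimuli left it below the M0 samples. Abca1 was 0.46 ± 0.17 higher (adjusted p = 0.0596), a difference that passed the threshold once the mouse was a term of the fit (0.44, adjusted p = 0.0132).

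Between the polarized states at 24 h, M1-like cells had 6 members above their M2-like level (background 34.6%) and 1 below it (background 38.1%). Abca1 differed by 2.46 ± 0.17 (5.51-fold), Npc2 by 1.56 ± 0.06, Nr1h2 by 1.31 ± 0.11, Mylip by 1.08 ± 0.07, Nr1h3 by 0.70 ± 0.09 and Lpcat3 by 0.33 ± 0.07. Npc1 was lower by -0.53 ± 0.05. Apoe (0.06 ± 0.11, adjusted p = 0.653), Abcg1 (-0.08 ± 0.07) and Soat1 (-0.11 ± 0.07) were not called, and their samples overlapped between the states.

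In the reprogramming experiment the same stimuli gave another picture, with Nr1h3 and Apoe low in M1-like cells. Apoe stood at 13320, 11850 and 13320 CPM in untransfected M0 cells, at 11630, 13090 and 13040 CPM in untransfected M2-like cells and at 965, 535 and 1216 CPM in untransfected M1-like cells. The M1-like samples lay far below the others, by -3.83 ± 0.21 from M0 (14.2-fold lower, adjusted p = 1.54e-16) and by -3.80 ± 0.21 from M2-like cells (13.9-fold lower). Nr1h3 stood at 72.0, 63.6 and 74.2 CPM in M0, at 82.0, 89.7 and 99.5 CPM in M2-like and at 16.9, 27.2 and 28.7 CPM in M1-like cells. That made it 2.89-fold lower in M1-like than in M0 cells (-1.53 ± 0.13, adjusted p = 5.85e-12).

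**Figure D1:**
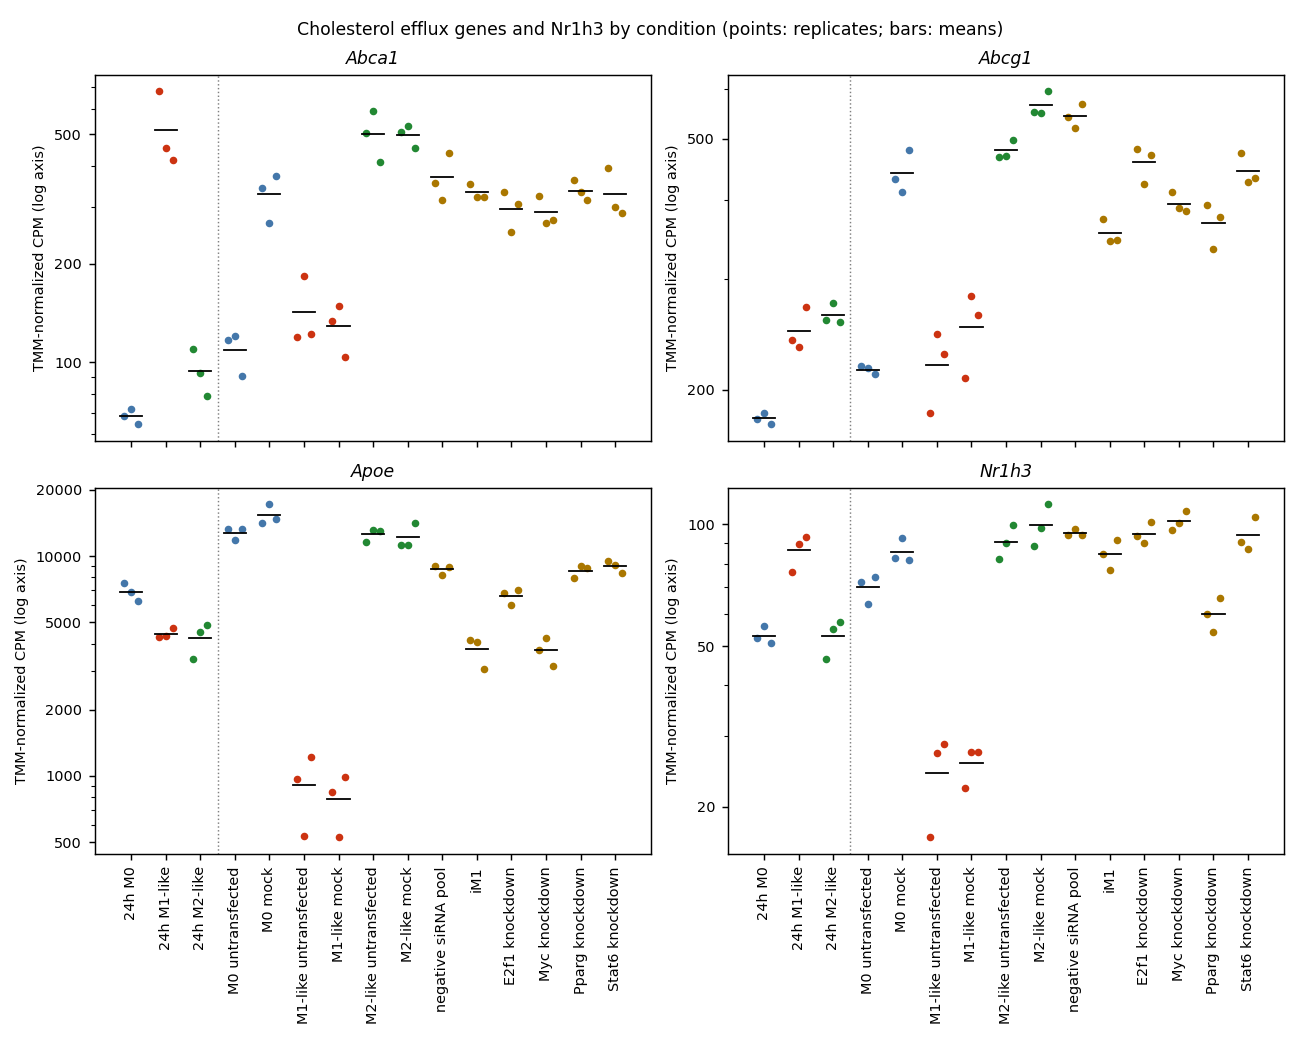
TMM-normalized CPM (logarithmic axis) of Abca1, Abcg1, Apoe and Nr1h3 in every replicate of the 15 conditions, with bars at the means of 3 replicates. The dotted line separates the 24 h polarization experiment (left) from the reprogramming experiment (right). Abca1 is highest in M1-like cells at 24 h and in M2-like cells of the reprogramming experiment, where Apoe and Nr1h3 are lowest in M1-like cells.

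Relative to untransfected M0 cells, Abca1 and Abcg1 did not follow Apoe in that experiment. Abca1 stood at 117, 120 and 90.4 CPM in untransfected M0 cells, at 119, 184 and 122 CPM in M1-like cells and at 504, 590 and 412 CPM in M2-like cells. The M2-like samples lay above all others, by 2.20 ± 0.17 from M0 (4.6-fold, adjusted p = 2.89e-11), while M1-like and M0 samples overlapped (0.38 ± 0.17, adjusted p = 0.0522, or 0.0381 with the replicate number as a block). Abcg1 stood at 218, 216 and 211 CPM in M0, at 184, 245 and 228 CPM in M1-like and at 468, 469 and 498 CPM in M2-like cells. It was 2.22-fold higher in M2-like than in M0 cells (1.15 ± 0.09, adjusted p = 6.34e-11) and overlapped between M1-like and M0 cells (0.02 ± 0.09).

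Of the 10 members, 7 were higher in untransfected M2-like than in M0 cells (background 10.7%) and 0 were lower by edgeR or DESeq2 (background 9.19%), with a median of 0.33 against -0.005 over all genes. Besides Abca1 and Abcg1 these were Lpcat3 (0.66 ± 0.09), Mylip (0.44 ± 0.11), Nr1h3 (0.37 ± 0.12), Soat1 (0.29 ± 0.06) and Npc2 (0.26 ± 0.09). The Npc2 samples overlapped, and the calls of Nr1h3 and Npc2 were each lost without any 1 of 4 libraries. Untransfected M1-like against M0 cells gave 3 higher members (background 29.0%), Npc2 (1.25 ± 0.09), Nr1h2 (0.44 ± 0.08) and Soat1 (0.27 ± 0.06), and 4 lower members (background 28.7%), Apoe, Nr1h3, Mylip (-0.47 ± 0.11) and Lpcat3 (-0.45 ± 0.09). These comparisons share the M0 samples.

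Between untransfected M1-like and M2-like cells, 3 members were higher (background 31.3%) and 6 lower (background 30.2%). The lower ones were Apoe, Nr1h3 (-1.90 ± 0.13), Abca1 (-1.83 ± 0.17, 3.55-fold lower), Abcg1 (-1.13 ± 0.09), Lpcat3 (-1.12 ± 0.09) and Mylip (-0.90 ± 0.11). The higher ones were Npc2 (1.0 ± 0.09), Nr1h2 (0.56 ± 0.08) and Npc1 (0.24 ± 0.07). The members' median was -1.01, against 0.028 over all genes.

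Mock-treated M1-like cells lay below mock-treated M2-like cells for the same 6 genes. Apoe stood at 844, 527 and 992 CPM in M1-like mock and at 11280, 11180 and 14210 CPM in M2-like mock cells (-3.96 ± 0.21, 15.5-fold lower, adjusted p = 7.07e-17). Abca1 stood at 133, 149 and 104 CPM against 509, 529 and 453 CPM (-1.95 ± 0.17, adjusted p = 1.13e-11), and Nr1h3 at 22.3, 27.4 and 27.3 CPM against 88.4, 97.9 and 112 CPM (-1.95 ± 0.13, adjusted p = 1.08e-14). None of these samples overlapped between the states, but the share of all genes without overlap was not determined. In all 4 members were higher (background 30.9%) and 6 lower (background 29.8%). The smallest of them, Soat1 (0.16 ± 0.06), was lost without M1-like mock replicate 2 or M2-like mock replicate 3 and under DESeq2 (adjusted p = 0.0524), RLE normalization (0.0755), no filter (0.176) and a fit of only the compared groups (0.173). Npc1 (0.21 ± 0.07) was lost without M1-like mock replicate 1, without a filter (0.0593) and with only the compared groups (0.0777).

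**Figure D2:**
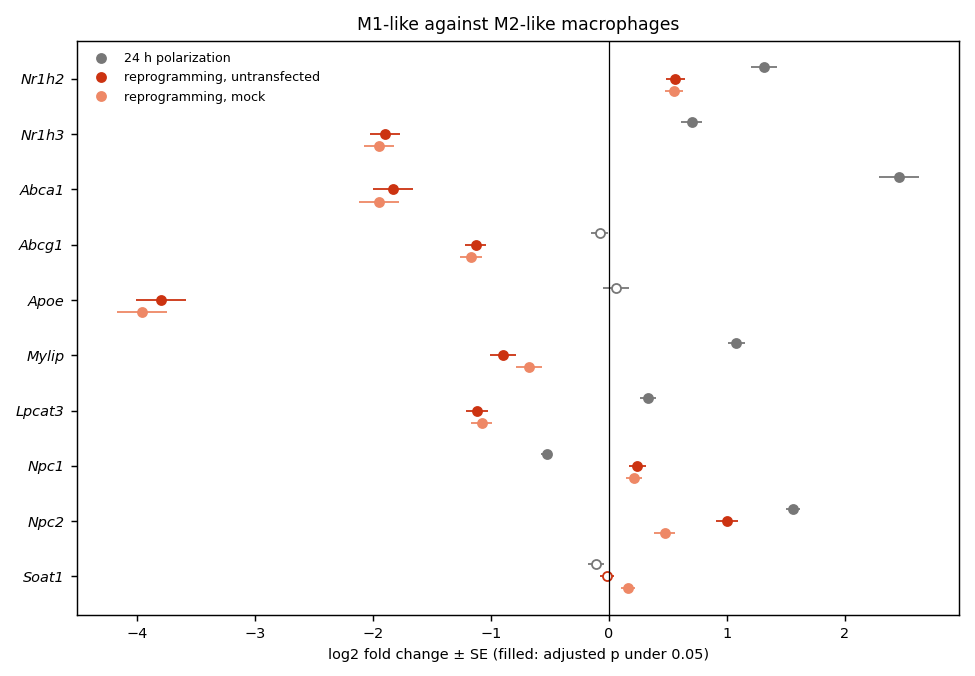
Log2 fold changes (points) with SE (bars) of the 10 genes between M1-like and M2-like cells, at 24 h of polarization (grey) and in untransfected (red) and mock-treated (orange) cells of the reprogramming experiment. Filled points passed an adjusted p under 0.05. Abca1, Nr1h3, Mylip and Lpcat3 lie on the positive side at 24 h and on the negative side in the reprogramming experiment, while Nr1h2 and Npc2 lie on the positive side in all 3 comparisons.

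Against M0 mock cells, M1-like mock cells had 3 higher members (background 30.3%) and 6 lower members (background 30.0%), led by Apoe (-4.29 ± 0.21, 19.6-fold lower), Nr1h3 (-1.74 ± 0.13) and Abca1 (-1.34 ± 0.17). M2-like mock cells had 2 higher members (background 2.19%) and 0 lower by edgeR or DESeq2 (background 1.64%). These were Abca1 (0.60 ± 0.16, adjusted p = 0.0291) and Abcg1 (0.36 ± 0.09, adjusted p = 0.0208). Both calls were lost without M0 mock replicate 1 or replicate 2, that of Abca1 also without M2-like mock replicate 1 or 2 and that of Abcg1 without M2-like mock replicate 3, with adjusted p up to 0.204 for Abca1 and 0.123 for Abcg1.

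Markers of several other peritoneal cell types moved with these differences. The 5 neutrophil markers did not, with sums of 23.7 to 27.4 CPM in M1-like mock and 23.2 to 28.5 CPM in M2-like mock cells. The 3 fibroblast markers Col1a1, Col3a1 and Dcn were all above 1 CPM in every group of this experiment and summed to 11.3 to 24.6 CPM in M1-like mock and 85.9 to 144 CPM in M2-like mock cells, and in untransfected cells to 20 to 63.1 against 56.7 to 225 CPM. At 24 h the same sum was lower, between 7.13 and 18.6 CPM over all groups, with 2 of the 3 markers above 1 CPM in M1-like cells. The 3 mesothelial markers summed to 0.295 to 0.755 CPM in M1-like mock and 10.6 to 19.7 CPM in M2-like mock cells, the 4 B cell markers to 0.979 to 2.36 and 6.55 to 11.6 CPM, and the 6 macrophage markers to 6090 to 7080 and 14600 to 15800 CPM. The 3 eosinophil markers summed to 0.737 to 1.28 CPM in M1-like mock and 18.7 to 19.8 CPM in M2-like mock cells. Marker sums also varied among the siRNA groups. The neutrophil sum was 87.9 to 113 CPM in the Pparg knockdown and 28.6 to 44.3 CPM in the negative pool. In the negative pool the fibroblast sum was 150 to 222 CPM and the macrophage sum 12300 to 13300 CPM. The part of these cells in the differences of the members was not tested.

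The receptors moved apart within the reprogramming experiment. Nr1h2 was highest in M1-like mock (mean 161 ± 11.7 CPM, SD, n = 3) and M1-like untransfected cells (153 ± 6.17 CPM), whose samples overlapped, and lay between 96.8 and 119 CPM in the means of the other 10 groups. Nr1h3 was lowest in those same groups, at 25.7 ± 2.93 and 24.2 ± 6.45 CPM, next lowest in the Pparg knockdown (59.9 ± 5.81 CPM), and between 69.9 and 102 CPM elsewhere. Over the 12 condition means the Pearson correlation of the receptors was -0.88, and that of Nr1h3 was 0.83 with Apoe, 0.78 with Abcg1 and 0.73 with Abca1. These are descriptions of 12 means, of which 2 come from the M1-like cells that stand apart, and the means share libraries and depth.

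The genes most like 4 of the members over these 12 means, of 10223 genes compared by Pearson correlation, were Tubb2a (0.995), Hs6st1 (0.991) and Mamdc2 (0.99) for Apoe. For Nr1h3 they were Arl11 (0.976), Fabp4 (0.973) and B430306N03Rik (0.973). For Abca1 they were Nt5dc3 (0.948), Tcirg1 (0.947) and Endod1 (0.945), and for Abcg1 mt-Rnr2 (0.944), Nt5dc3 (0.94) and L3mbtl3 (0.938). Abca1 and Abcg1 correlated at 0.93 with each other and at 0.59 and 0.62 with Apoe.

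**Figure D3:**
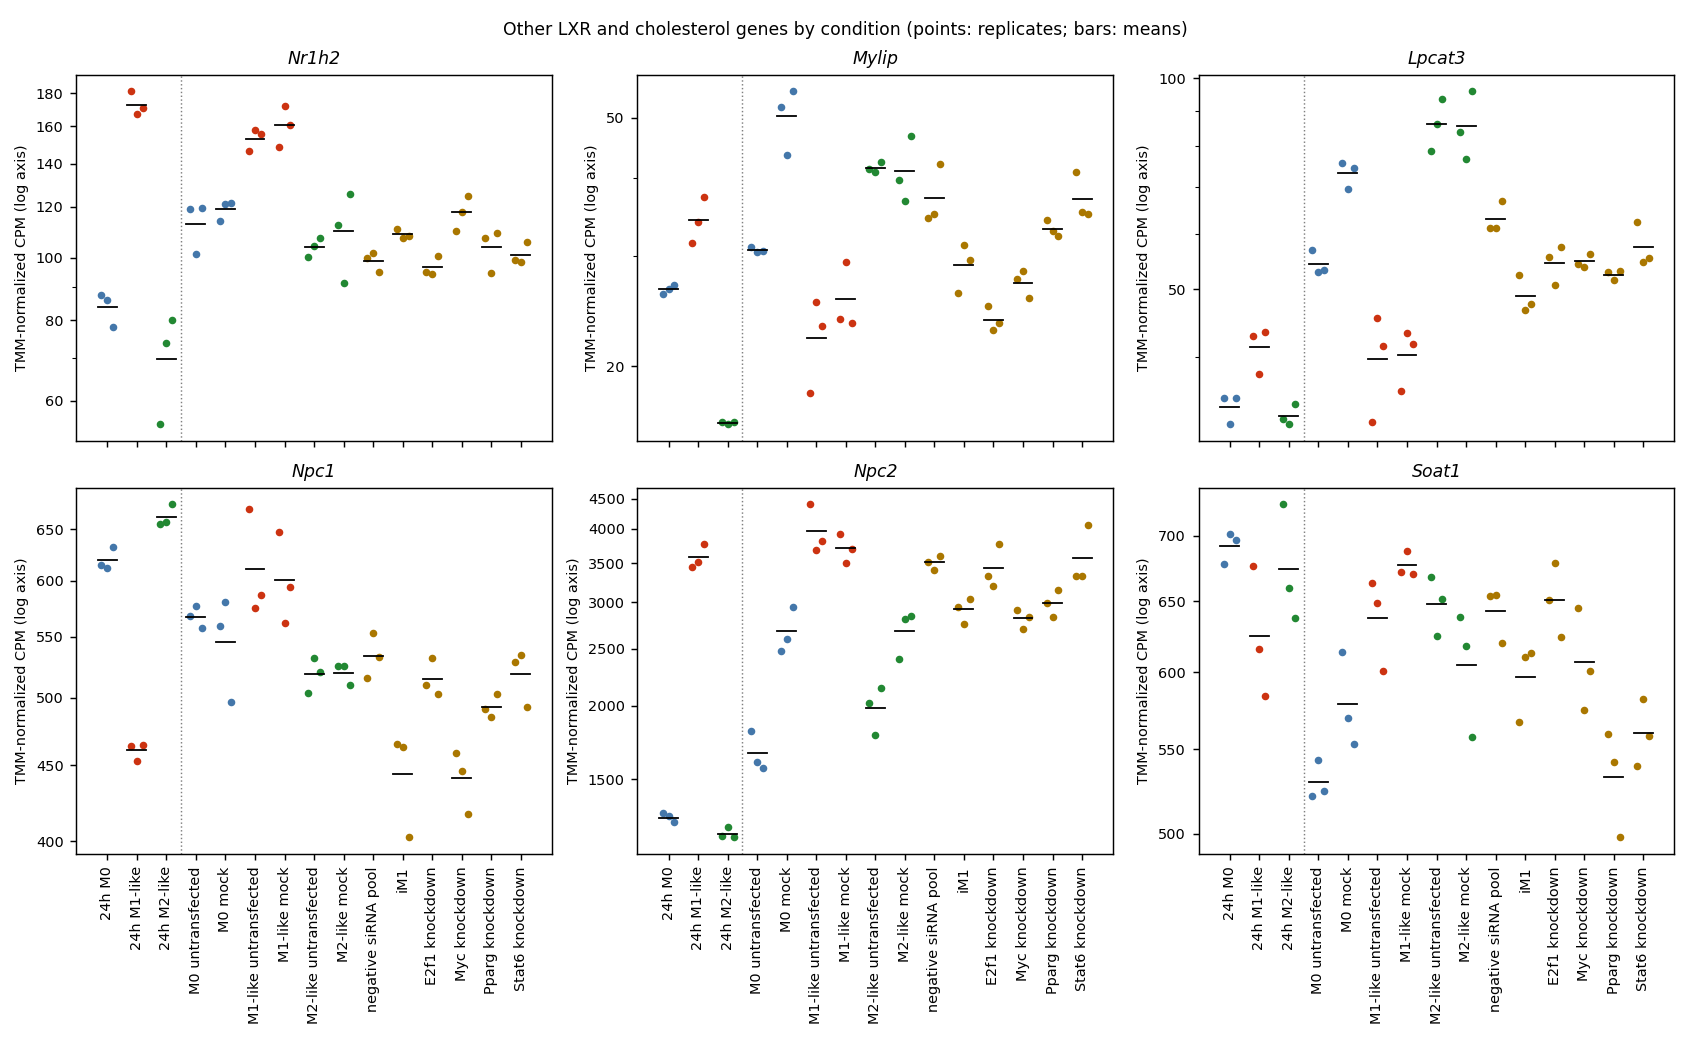
TMM-normalized CPM (logarithmic axis) of Nr1h2, Mylip, Lpcat3, Npc1, Npc2 and Soat1 in every replicate of the 15 conditions, with bars at the means of 3 replicates and a dotted line between the experiments. Nr1h2 is highest in the M1-like groups of both experiments, Mylip in M0 mock cells and Lpcat3 in untransfected and mock-treated M2-like cells. The Soat1 means stay between 530 and 692 CPM.

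Mock-treated M0 cells had more Abca1 and Abcg1 RNA than untransfected M0 cells. Mock-treated cells were taken 48 h after the reagent was added, and if the untransfected cells were harvested earlier, the reagent and the added time in culture cannot be told apart in this and the next comparisons. Abca1 stood at 117, 120 and 90.4 CPM in untransfected and at 342, 267 and 373 CPM in mock-treated M0 cells, a 3.0-fold difference (1.59 ± 0.17, adjusted p = 1.41e-08). Abcg1 stood at 218, 216 and 211 CPM against 432, 411 and 479 CPM (1.03 ± 0.09, adjusted p = 4.76e-10). Mylip rose from 31.0, 30.5 and 30.6 CPM to 52.1, 43.6 and 55.1 CPM (0.71 ± 0.11, adjusted p = 7.66e-06), its highest group of that experiment. Npc2 (0.69 ± 0.09) and Lpcat3 (0.43 ± 0.09) rose too. The groups overlapped for none of these 5 genes, but the share of all genes without overlap was not determined. In all, 5 members were called higher (background 11.7%) and 0 lower by edgeR or DESeq2 (background 8.66%). Apoe did not pass the threshold (0.26 ± 0.19, adjusted p = 0.346), and Nr1h3 (0.29 ± 0.12, adjusted p = 0.0806) passed it only with the replicate number as a block (adjusted p = 0.025).

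In polarized cells the difference of Abca1 between mock-treated and untransfected cells did not pass the threshold. Abca1 stood at 119, 184 and 122 CPM in untransfected and 133, 149 and 104 CPM in mock-treated M1-like cells (-0.13 ± 0.16), and at 504, 590 and 412 against 509, 529 and 453 CPM in M2-like cells (-0.02 ± 0.16). In M1-like cells 0 members were called by edgeR or DESeq2 and 1 had an unadjusted p under 0.05, as had 438 of all genes, of which 0 were called by either tool (background 0.0%). In M2-like cells Npc2 was called higher, at 2399, 2807 and 2847 CPM against 2023, 1784 and 2148 CPM (0.44 ± 0.09, adjusted p = 0.00354, background 1.67% higher and 0.0988% lower). That call was lost without M2-like untransfected replicate 2 (adjusted p = 0.0588).

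The difference between mock-treated and untransfected cells was compared between states directly, for M0 as a comparison added after the values were seen. It was smaller in M2-like than in M0 cells for Abca1 (-1.60 ± 0.23, adjusted p = 3.34e-05), Abcg1 (-0.80 ± 0.13, adjusted p = 0.000206), Mylip (-0.73 ± 0.15, adjusted p = 0.00276) and Lpcat3 (-0.44 ± 0.13, adjusted p = 0.0389), with 5.66% of all genes called in either direction. It was smaller in M1-like than in M0 cells for Abca1 (-1.72 ± 0.23, adjusted p = 5.1e-06), Abcg1 (-0.83 ± 0.13), Npc2 (-0.78 ± 0.13), Mylip (-0.51 ± 0.15) and Lpcat3 (-0.41 ± 0.13), with 9.07% of all genes called. The Lpcat3 differences, and that of Mylip in M1-like cells, were lost without any 1 of 8 or 9 of the 12 libraries. Between M1-like and M2-like cells 1 member differed, Npc2 (-0.53 ± 0.13, adjusted p = 0.0269, background 0.0353% higher and 1.09% lower), and that call was lost without any 1 of 6 libraries.

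**Figure D4:**
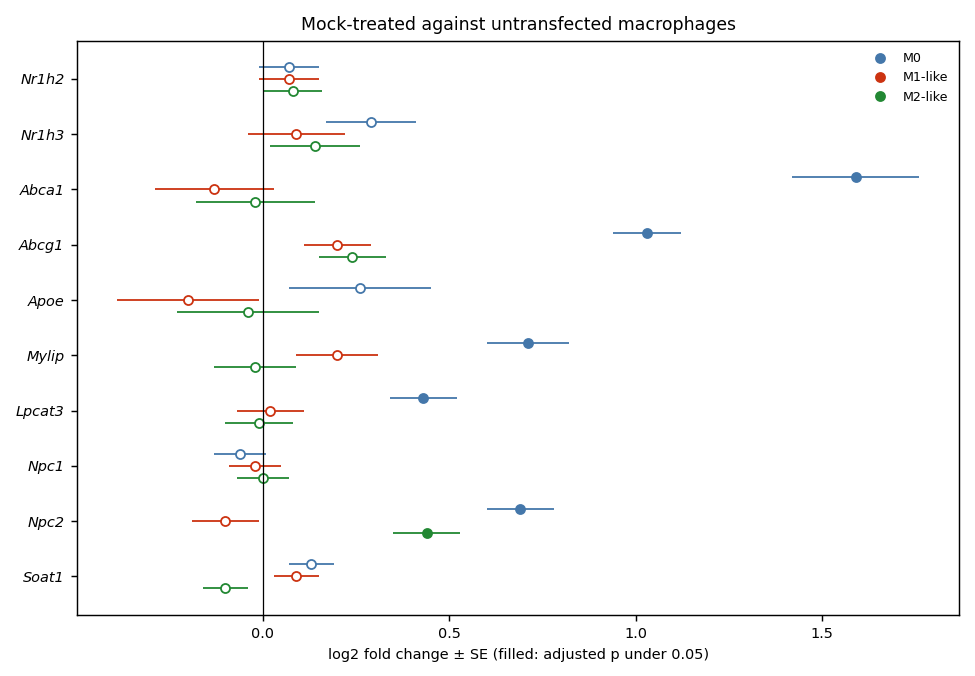
Log2 fold changes (points) with SE (bars) of mock-treated against untransfected cells in M0 (blue), M1-like (red) and M2-like (green) cells, 3 libraries per group. Filled points passed an adjusted p under 0.05. The M0 values of Abca1, Abcg1, Mylip, Lpcat3 and Npc2 lie to the right, and the polarized cells lie near 0 for all genes but Npc2 in M2-like cells.

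Some members were lower after siRNA transfection of M2-like cells, and the negative siRNA pool itself differed from mock for 2 members. Against M2-like mock cells the negative pool lowered Lpcat3, from 83.9, 76.7 and 95.9 CPM to 61.1, 61.2 and 66.9 CPM (-0.44 ± 0.09, adjusted p = 0.00117), and raised Npc2 (0.38 ± 0.09, adjusted p = 0.0041), with backgrounds of 5.03% lower and 6.67% higher. Abca1 stood at 356, 314 and 440 CPM and Apoe at 9011, 8208 and 8952 CPM in the negative pool, below every M2-like mock sample, but neither passed the threshold (-0.43 ± 0.16, adjusted p = 0.0859, and -0.49 ± 0.19, adjusted p = 0.0895). Each knockdown below is therefore given against both controls.

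In iM1 cells 6 members were lower than in M2-like mock cells (background 18.1%) and 0 were higher by edgeR or DESeq2 (background 19.0%). Apoe led, at 4136, 4073 and 3065 CPM against 11280, 11180 and 14210 CPM (-1.70 ± 0.19, 3.25-fold lower, adjusted p = 1.44e-08). Lpcat3 (-0.81 ± 0.09), Abcg1 (-0.67 ± 0.09), Abca1 (-0.58 ± 0.16), Mylip (-0.50 ± 0.11) and Npc1 (-0.23 ± 0.07) followed, the last of them lost without iM1 replicate 3. Against the negative pool also 6 were lower (background 13.9%) and 0 higher by edgeR (background 12.5%). DESeq2 called 6 in all, with 3697 of all genes, and 6 had an unadjusted p under 0.05, as had 5270 of all genes. The lower members were Apoe (-1.21 ± 0.19, adjusted p = 1.17e-05), Abcg1 (-0.62 ± 0.09, adjusted p = 5.67e-06), Lpcat3 (-0.37 ± 0.09), Mylip (-0.36 ± 0.11), Npc1 and Npc2. Abca1 was not among them, at 352, 321 and 322 CPM in iM1 (-0.16 ± 0.16, adjusted p = 0.508). Nr1h3 was called against neither control (-0.24 ± 0.12 and -0.18 ± 0.12). The TMM factors were 1.037 to 1.066 in iM1, 0.9297 to 0.9539 in M2-like mock and 0.9608 to 0.9674 in negative pool samples. This scaling lowers iM1 values relative to both controls, so negative differences as small as those of Npc1 and Npc2 depend in part on it.

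The iM1 cells remained apart from M1-like mock cells, with 5 members higher (background 27.2%) and 4 lower (background 25.6%). Apoe was 4.77-fold higher in iM1 (2.25 ± 0.20), Nr1h3 3.28-fold higher (1.71 ± 0.13), Abca1 2.57-fold higher (1.36 ± 0.17) and Abcg1 1.41-fold higher (0.50 ± 0.09). No sample of either group overlapped for these genes, but the share of all genes without overlap was not determined. Lpcat3 was higher too, by 0.28. Nr1h2 (-0.56 ± 0.08), Npc1 (-0.44 ± 0.07), Npc2 (-0.35 ± 0.09) and Soat1 (-0.18) were lower.

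The Myc knockdown lowered Apoe about as far as iM1. It stood at 3743, 4254 and 3173 CPM, a difference of -1.71 ± 0.19 from M2-like mock cells (adjusted p = 1.27e-08) and of -1.23 ± 0.19 from the negative pool (adjusted p = 8.59e-06). Against mock 6 members were lower (background 18.9%) and 0 higher by either tool (background 19.8%), namely Apoe, Abca1 (-0.78 ± 0.16), Lpcat3 (-0.64 ± 0.09), Mylip (-0.59 ± 0.11), Abcg1 (-0.52 ± 0.09) and Npc1 (-0.24 ± 0.07). Against the negative pool 5 were lower (background 15.6%), Apoe, Abcg1, Mylip, Npc2 and Npc1, and Nr1h2 was higher (0.25 ± 0.08, background 13.9%). With TMM factors of 1.05 to 1.067 in these samples, the small negative differences of Npc1 and Npc2 again depend in part on the scaling. Between iM1 and the Myc knockdown 0 members were called by edgeR or DESeq2, with 0.0494% of all genes called by edgeR. An unadjusted p under 0.05 was reached by 1 member and by 427 of all genes, and the Apoe difference was 0.01 ± 0.19. In a comparison added after the values were seen, Apoe was lower in the Myc knockdown than in the mean of the other single knockdowns (-1.10 ± 0.16, adjusted p = 3.95e-06, with 32.6% of all genes called). The Myc pool came from Dharmacon and the E2f1, Pparg and Stat6 pools from siTools Biotech. No supplier is stated for the negative pool. Target and supplier therefore cannot be told apart for the differences of the Myc knockdown, or for those it shares with iM1.

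The Pparg knockdown was the one that lowered Nr1h3, a known target gene of PPARγ in macrophages. Nr1h3 stood at 60.1, 54.1 and 65.7 CPM, below the 88.4, 97.9 and 112 CPM of M2-like mock and the 94.1, 97.3 and 94.3 CPM of the negative pool. The differences were -0.73 ± 0.12 (adjusted p = 2.97e-05) and -0.67 ± 0.12 (adjusted p = 0.000466). Against the mean of the other single knockdowns, added after the values were seen, it was -0.69 ± 0.10 (adjusted p = 3.76e-05, with 4.46% of all genes called), and iM1 cells, in which Pparg was lowered as well, exceeded the Pparg knockdown by 0.49 ± 0.12 (adjusted p = 0.00383, with 18.0% of all genes called). Abcg1 fell to 392, 334 and 376 CPM (-0.62 ± 0.09 against mock and -0.56 ± 0.09 against the negative pool, adjusted p = 0.000114). Apoe stood at 7950, 9005 and 8806 CPM, overlapping the negative pool, and was called against neither control (-0.51 ± 0.19 and -0.02 ± 0.19), though the replicate number as a block brought it past the threshold against mock (-0.50, adjusted p = 0.0446). In all 6 members were lower than in mock (background 7.63%) and 0 higher by either tool (background 9.59%), and 3 were lower than in the negative pool (background 3.03%, with 2.71% of all genes higher), the third being Soat1 (-0.27 ± 0.06, adjusted p = 0.00726). Without Pparg knockdown replicate 3, 3 members remained called against mock.

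The E2f1 knockdown lowered 5 members against mock (background 5.32%), Apoe (-0.89 ± 0.19), Mylip (-0.79 ± 0.11), Abca1 (-0.74 ± 0.16), Lpcat3 (-0.65 ± 0.09) and Abcg1 (-0.30 ± 0.09), and raised Npc2 (0.35 ± 0.09, background 6.31%). Against the negative pool 1 member was called, Mylip, at 25.0, 22.8 and 23.4 CPM against 34.6, 35.0 and 42.1 CPM (-0.65 ± 0.11, adjusted p = 0.00104, background 0.649% lower and 0.261% higher). Mylip was also below the mean of the other single knockdowns (-0.44 ± 0.09, adjusted p = 0.00229, with 8.90% of all genes called), a comparison added after the values were seen. The Stat6 knockdown lowered Abca1 (-0.60 ± 0.16), Lpcat3 (-0.57 ± 0.09) and Abcg1 (-0.34 ± 0.09) against mock (background 5.33%) and raised Npc2 (0.41 ± 0.09, background 6.13%). Against the negative pool 0 members were called by edgeR (background 1.04% lower and 0.466% higher). DESeq2 called 1 member, with 363 of all genes. An unadjusted p under 0.05 was reached by 2 members and by 1713 of the 14172 genes.

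**Figure D5:**
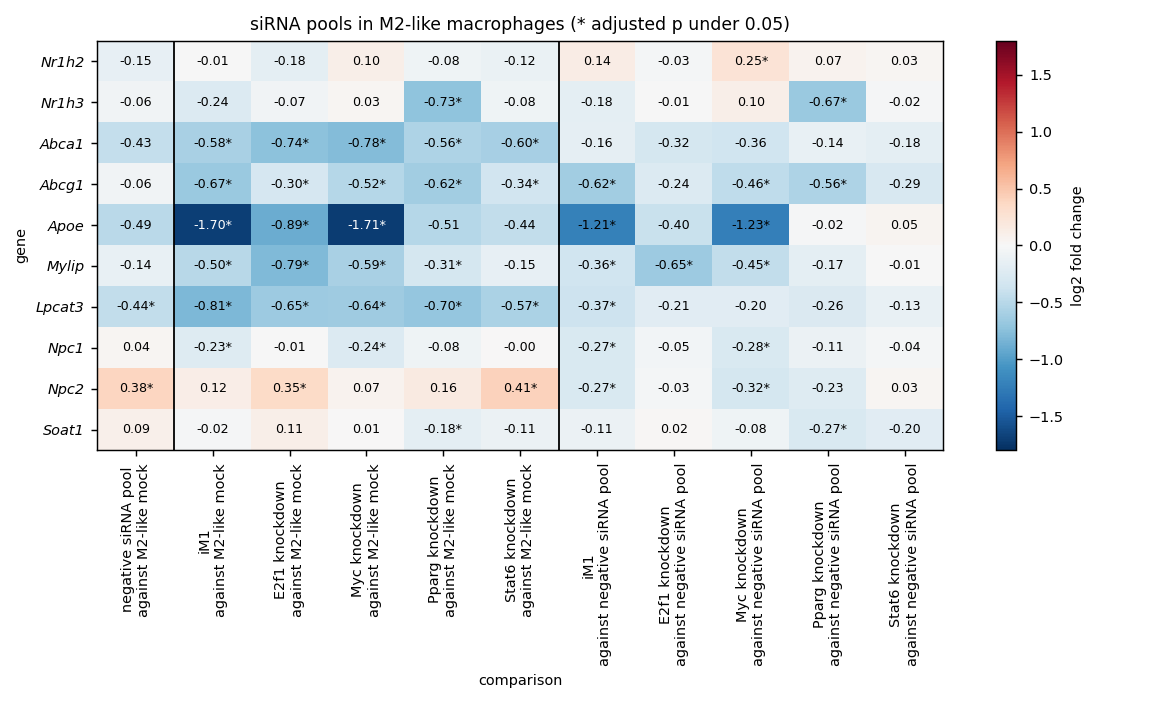
Log2 fold changes of the 10 genes (rows) for the negative siRNA pool against M2-like mock cells and for iM1 and the 4 single knockdowns against M2-like mock cells and against the negative siRNA pool, with the value in each cell and an asterisk at an adjusted p under 0.05. Apoe is lowest in iM1 and the Myc knockdown against both controls, Nr1h3 is called in the Pparg knockdown alone, and Abca1 is called against mock in all 5 and against the negative pool in none.

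Of 39 further genes of the pathway in 5 lists, 36 were tested at 24 h and 37 in the reprogramming experiment. Between M1-like and M2-like cells at 24 h, 14 were higher and 18 lower (backgrounds 34.6% and 38.1%), and between iM1 and M2-like mock cells 5 were higher and 18 lower (backgrounds 19.0% and 18.1%). The same backgrounds hold for the counts by list that follow. Among 8 tested LXR partners and cofactors, 3 rose and 4 fell in M1-like against M2-like cells at 24 h, among them the coactivator Ncoa1 (0.62 ± 0.06), and 0 rose by edgeR and 3 fell in iM1, among them the coactivator Ncoa2 (-0.41 ± 0.07). Among 9 tested other LXR targets, 4 rose and 3 fell at 24 h, led by Lpl (-3.27 ± 0.13), the lipoprotein lipase, and Mertk (3.02 ± 0.06), a receptor for dying cells, and 2 rose and 5 fell in iM1, led by Lpl (-1.86 ± 0.14) and the phospholipid transfer protein Pltp (-1.46 ± 0.11).

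Of the enzymes of oxysterol and sterol synthesis, at 24 h 2 of 5 tested rose and 3 fell in M1-like against M2-like cells, with a median difference of -1.07. Ch25h, which makes 25-hydroxycholesterol, was at a mean of 56.4 against 1.65 CPM (5.11 ± 0.20, adjusted p = 2.68e-10). In iM1 against M2-like mock cells 1 of 6 rose and 2 fell, with Ch25h, barely detected, at 0.783 against 0.134 CPM (2.47 ± 0.85, adjusted p = 0.0218). Of 6 lipoprotein receptors, 2 rose and 4 fell at 24 h, led by the scavenger receptor Cd36 (-5.71 ± 0.13) and Vldlr (2.79 ± 0.45, at 0.602 against 0.086 CPM), and 1 rose and 4 fell in iM1, led by Lrp1 (-0.78 ± 0.12) and Cd36 (-0.73 ± 0.13). Of 8 genes of lysosomal and intracellular cholesterol handling, 3 rose and 4 fell at 24 h, led by Lipa, the lysosomal acid lipase (-2.55 ± 0.08), and the sterol carrier Stard4 (-2.03 ± 0.14), and 1 rose and 4 fell in iM1, led by Stard4 (-1.61 ± 0.15) and the cholesteryl ester hydrolase Nceh1 (-0.62 ± 0.06).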

How the data were processed

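The authors trimmed reads, aligned them to GRCm38/mm10 and counted them per gene, and the submitters' processing notes name Trimmomatic, TopHat2 and featureCounts. The deposited values are raw counts per gene, not normalized, with strand and annotation release not given in the sources used here. Counts of the 2 technical replicates of a mouse were summed, since they differed by little more than the sampling noise (chi-square per gene of 1.07 to 1.097, against 5.864 or more between mice). Between replicates of a group in the reprogramming experiment it was 4.475 to 22.973. Each experiment was filtered with filterByExpr (minimum count 10, total 15), TMM-normalized and fitted over all its groups with edgeR 4.0.16 (R 4.3.3, quasi-likelihood test, two-sided, Benjamini-Hochberg adjustment over all genes tested). RPKM used the summed exon length of GENCODE annotation. The fit was tested on simulated data.

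All 10 members are named. From each further list the 2 called genes with the largest absolute difference between the 24 h polarized states and between iM1 and M2-like mock cells are named, and the 3 genes most correlated with Abca1, Abcg1, Apoe and Nr1h3 over the reprogramming conditions. Of the genes so named, 2 are not reported here. The members and lists were chosen with earlier results of these data known. The comparisons of mock effects with M0, of single knockdowns with the mean of the others and of iM1 with single knockdowns, and the loose repeat and E-box searches, were added after the data were seen. Promoter sequences are from RefSeq (GRCm38.p6).

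In the polarization experiment the replicate number is the mouse, and the blocked values are given where they change a call (deviations of samples of 1 mouse correlated at a median of 0.25, against -0.14 between mice). Alternatives were RLE normalization, no filter, only the compared groups, the replicate block, DESeq2 1.42.0, technical replicates kept separate, the negative pool as reference, and leaving out each replicate.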

Additional observations from a re-analysis of the deposited data

Results flagged for a closer look

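The difference between mock-treated and untransfected cells, in which the reagent and a possible difference in culture time cannot be told apart, differed between states by a test of the difference itself. Against that in M0 cells, the difference in M2-like cells was smaller for Abca1 (-1.60 on the log2 scale), Abcg1 (-0.80), Mylip (-0.73) and Lpcat3 (-0.44), and that in M1-like cells was smaller for Abca1 (-1.72), Abcg1 (-0.83), Npc2 (-0.78), Mylip (-0.51) and Lpcat3 (-0.41). Between M1-like and M2-like cells it differed for Npc2 (-0.53). The 3 mock-treated M0 samples of Abca1, Abcg1, Mylip, Lpcat3 and Npc2 all lay above the 3 untransfected ones, and the share of all genes that did so was not determined.

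Some members also moved in opposite directions in the 2 experiments, with no overlap between the compared groups in either. These differences were not tested because the experiments differ in read type and sequencing site and possibly in time. The share of all genes that reversed in this way was not determined, so the reversals are not shown to be particular to the members. For M1-like against M2-like cells, the 24 h values and those of untransfected cells in the reprogramming experiment were 0.70 and -1.90 for Nr1h3, 2.46 and -1.83 for Abca1, 1.08 and -0.90 for Mylip, 0.33 and -1.12 for Lpcat3, and -0.53 and 0.24 for Npc1. For M1-like against M0 cells they were 0.70 and -1.53 for Nr1h3, 0.37 and -0.47 for Mylip, 0.28 and -0.45 for Lpcat3, and -0.15 and 0.27 for Soat1, of which the 24 h value of Soat1 did not pass the threshold. For M2-like against M0 cells they were -0.71 and 0.44 for Mylip, and 0.10 and -0.13 for Npc1, of which neither Npc1 value passed it. In M1-like cells the positive 24 h values of Mylip and Lpcat3 against M0, and of Lpcat3 against M2-like cells, depend on the TMM scaling.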

How the results depend on the processing

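Taking the negative siRNA pool as the reference changed the counts of called members most, from 6 to 1 for the E2f1, from 6 to 3 for the Pparg and from 4 to 0 for the Stat6 knockdown. It also turned signs: Npc2 went from 0.35, past the threshold, to -0.03 in the E2f1 knockdown, and to -0.27 in iM1 and -0.32 in the Myc knockdown, both past it, from 0.12 and 0.07. Between values past it on neither side, Npc2 turned to -0.23 in the Pparg knockdown, Nr1h2 to 0.14 in iM1, 0.07 in the Pparg and 0.03 in the Stat6 knockdown, Apoe to 0.05 in the Stat6 knockdown and Soat1 to -0.08 in the Myc knockdown. With RLE normalization and with DESeq2 the last was -0.01, from 0.01. Keeping technical replicates as separate samples called 7 members for M2-like against M0 cells at 24 h, where the mouse is the replicate. The negative siRNA pool against mock had 4 called members without a filter and 4 with only the compared groups fitted, and with only the compared groups M2-like mock against M0 mock cells and against M2-like untransfected cells had 0. With these exceptions each count stayed within 1.5 times the reported one under RLE normalization, no filter, DESeq2 and the replicate block.

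Other calls lost by setting were, without a filter, Soat1 in the Pparg knockdown against mock (adjusted p = 0.213) and against the other single knockdowns (0.182), in the E2f1 knockdown against the other single knockdowns (0.0595) and in iM1 against M1-like mock (0.109). With only the compared groups they were Npc2 in untransfected M2-like against M0 cells (0.0582) and in M2-like mock against untransfected cells (0.0555), Npc1 in untransfected M1-like against M2-like cells (0.0883), Soat1 in M1-like mock against M0 mock (0.0634), in the Pparg knockdown (0.13) and in iM1 against M1-like mock (0.0942), Mylip in the Pparg knockdown (0.0511), and Abca1 (0.0595) and Abcg1 (0.125) in M2-like mock against M0 mock.

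The replicate number as a block lost 0 calls of members and gained 1 in each of 7 comparisons. In the reprogramming experiment 34 of 36 samples correlated best with their own number, a hint from the data, while single pairs ranged from -0.25 to 0.63, so the numbers were not treated as pairs there. Gained calls were Abca1 at 24 h (M2-like against M0, adjusted p = 0.0132) and in untransfected M1-like against M0 cells (0.0381), Npc1 in M1-like mock against M0 mock (0.0464), Nr1h3 in M0 mock against untransfected (0.025), Apoe in the Pparg knockdown against mock (0.0446), Abcg1 in the Pparg knockdown against the other single knockdowns (0.0497) and Soat1 in iM1 against the Pparg knockdown (0.0366).

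Leaving out 1 replicate gave 3 to 5 called members for M2-like against M0 cells at 24 h (5 without M2-like replicate 3), 0 to 2 for M2-like mock against M0 mock cells, 0 to 1 for the mock difference of M1-like against M2-like cells, 3 to 5 for the Pparg knockdown, 2 to 4 for the Stat6 knockdown (2 without its replicate 2 or 3) and 0 to 1 for M2-like mock against untransfected cells. M2-like mock against M0 mock had 0 without M0 mock replicate 1 or 2 and 1 without M2-like mock replicate 1 or 2. The Npc2 mock difference (adjusted p up to 0.116) was lost without M1-like untransfected replicate 1, M1-like mock replicate 2 or 3, M2-like mock replicate 2 or 3, or M2-like untransfected replicate 2. In untransfected M2-like against M0 cells, Nr1h3 (up to 0.126) was lost without M0 replicate 1 or 2 or M2-like replicate 2 or 3, and Npc2 (up to 0.181) without M0 replicate 2 or 3 or M2-like replicate 1 or 3. Against mock, Abcg1 in the E2f1 knockdown (up to 0.152) was lost without knockdown replicate 2 or 3 or mock replicate 1 or 3, Npc2 (up to 0.0797) without knockdown replicate 3 or mock replicate 1, Abca1 in the Stat6 knockdown (up to 0.0818) without knockdown replicate 2 or 3, Abcg1 there (up to 0.0572) without knockdown replicate 2 or 3 or mock replicate 3, and Npc1 in iM1 (0.0872) without iM1 replicate 3. In the Pparg knockdown Abca1 (up to 0.0604) was lost without knockdown replicate 3 or mock replicate 2, Mylip (up to 0.253) without any knockdown replicate or mock replicate 1 or 3, and Soat1 (up to 0.218) without knockdown replicate 2 or 3 or mock replicate 1 or 2. Against M1-like mock cells, Lpcat3 in iM1 (up to 0.105) was lost without M1-like mock replicate 1 or iM1 replicate 1 and Soat1 (0.0854) without iM1 replicate 1. The cause of these changes was not tested. With 3 samples per group, a difference that misses the threshold is not shown to be absent.

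Without 1 replicate the sign turned in 41 small differences, all past the threshold neither before nor after, whose ranges on the log2 scale follow. The ranges were, for 24h M1-like against 24h M2-like, Apoe (-0.08 to 0.16), for M1-like untransfected against M0 untransfected, Abcg1 (-0.07 to 0.14), for M2-like untransfected against M0 untransfected, Apoe (-0.09 to 0.03), and for M0 mock against M0 untransfected, Npc1 (-0.10 to 0.01). Further ranges were, for mock effect in M2-like minus mock effect in M0, Nr1h2 (-0.10 to 0.13), for mock effect in M1-like minus mock effect in M0, Npc1 (-0.03 to 0.11), for M1-like untransfected against M2-like untransfected, Soat1 (-0.05 to 0.02), and for M1-like mock against M1-like untransfected, Nr1h3 (-0.12 to 0.23), Abca1 (-0.25 to 0.10), Apoe (-0.47 to 0.07), Lpcat3 (-0.11 to 0.13) and Npc1 (-0.08 to 0.05). Others were, for mock minus untransfected difference of M1-like against M2-like, Nr1h2 (-0.13 to 0.10), Nr1h3 (-0.26 to 0.09), Abca1 (-0.25 to 0.11), Abcg1 (-0.15 to 0.08), Apoe (-0.43 to 0.11), Lpcat3 (-0.10 to 0.14) and Npc1 (-0.08 to 0.05), for iM1 against M2-like mock, Nr1h2 (-0.13 to 0.10) and Soat1 (-0.07 to 0.02), for iM1 against Myc knockdown, Apoe (-0.09 to 0.14), Npc1 (-0.03 to 0.08) and Soat1 (-0.06 to 0.02), and for iM1 against Pparg knockdown, Abca1 (-0.07 to 0.04). Of the knockdowns and pools they were, for E2f1 knockdown against M2-like mock, Nr1h3 (-0.15 to 0.03), for Pparg knockdown against the mean of the other single knockdowns, Nr1h2 (-0.05 to 0.05), for E2f1 knockdown against the mean of the other single knockdowns, Abca1 (-0.18 to 0.01) and Lpcat3 (-0.05 to 0.04), and for Myc knockdown against M2-like mock, Nr1h2 (-0.02 to 0.21), Nr1h3 (-0.05 to 0.13), Npc2 (-0.01 to 0.11) and Soat1 (-0.05 to 0.05). The remaining ones were, for Pparg knockdown against M2-like mock, Nr1h2 (-0.20 to 0.03), for Stat6 knockdown against M2-like mock, Nr1h3 (-0.16 to 0.01), for M2-like mock against M2-like untransfected, Nr1h2 (-0.03 to 0.20), Abca1 (-0.14 to 0.12), Apoe (-0.17 to 0.02), Mylip (-0.12 to 0.06) and Lpcat3 (-0.10 to 0.06), and for negative siRNA pool against M2-like mock, Nr1h3 (-0.14 to 0.03).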
